A study of Homo sapiens with 6 samples.

Results

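SOX transcription factor genes were followed in RNA-seq libraries of control HEK293 cells (3 libraries) and of HEK293 cells carrying a FAM60A knockout (3 libraries). The genes taken by name were SOX2, SOX4, SOX5, SOX6, SOX8, SOX9, SOX11, SOX12, SOX13 and SOX18, 10 of the 62754 genes in the deposited table. They were chosen by earlier results of these libraries, above all the knockout-to-control fold change of SOX11. The question was whether the closest relatives of SOX11 fell with it or took its place. Knockout-to-control differences of these genes are therefore given as descriptions, with no p-value printed for any of them. Their calls, which use an adjusted p, are descriptions too. All 10 had an Ensembl identifier in the table and all 10 passed the filter on low counts. HEK293 cells descend from human embryonic kidney and grow attached, and each sample is also labelled HEK293T, the derivative that carries a viral T antigen. The knockout cells had received a CRISPR/Cas9 vector with guide RNAs against FAM60A (current symbol SINHCAF), which belongs to the Sin3 complex that removes acetyl groups from histones. They were kept as a puromycin-selected pool rather than as a clone, and the sources used here do not describe what the control cells received. Cells of both groups grew in the same serum-containing medium.

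SOX proteins bind DNA through a high-mobility-group (HMG) box that bends the helix, and they are sorted into groups by the likeness of this box. SOX4, SOX11 and SOX12 form the SOXC group, which acts in neural and mesenchymal progenitors and whose members can stand in for one another in the embryo. SOX5, SOX6 and SOX13 form the SOXD group, which lacks a transactivation domain and works beside other factors, SOX8 and SOX9 belong to the SOXE group of cartilage, gonad and neural crest, SOX2 to the SOXB group of stem cells and neural progenitors, and SOX18 to the SOXF group of blood and lymphatic vessels.

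The SOX genes resemble each other in the HMG box, so read assignment between them was examined in GENCODE v44 transcripts lifted to GRCh37. The longest exact run shared by any pair of the 10 genes was 37 bases (SOX8 with SOX9). Within the SOXC group SOX11 shared 35 bases with SOX12 and 27 with SOX4, and SOX4 shared 33 with SOX12. These runs are shorter than a read of the paired-end libraries, so no full-length read could match a pair of members exactly.

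Total counts lay between 88361827 and 93346824 per library. FAM60A RNA had 10165 to 12792 counts among controls and 5449 to 5793 among knockouts, so the targeted gene was lower in every knockout library (log2 fold change -0.85, standard error 0.11, and -0.78 without control replicate 3). Control replicate 3 stood apart from the other controls in many genes: of the 20992 genes tested, 15.6% were at least 2-fold above and 8.52% at least 2-fold under the mean of control replicates 1 and 2 in this library. Its values are therefore shown apart for the SOX genes, with the fits that leave it out beside those over all libraries. Of the 9 markers chosen for HEK293, VIM, KRT8, KRT18, NEFL, NEFM, LHX1, SIX2 and PAX2 were present and PAX8 had at most 10 counts in any library. Their summed level was 924 to 1696 CPM in control (924 in control replicate 3) and 738 to 878 CPM in knockout libraries (CPM, counts per 1e6 reads after TMM scaling, which sets libraries to a common size). VIM and KRT8 made up most of this sum. By the rule given below for the family, LHX1 (log2 fold change -1.91) and SIX2 (-1.55) were called lower, 2 of the 8 tested where 3.72% of all genes were. Without control replicate 3, 4 of the 8 were called lower, against 9.75% of all genes. Endothelial markers (CDH5, TEK and VWF, with PECAM1 not matched to an identifier) summed to 0.699 to 0.838 CPM in control (0.838 in control replicate 3) and 0.0831 to 0.285 CPM in knockout libraries. VWF, the only one of them tested over all libraries, was called lower (log2 fold change -2.40), with 43, 57 and 65 counts against 3, 14 and 11. The calls of LHX1 and VWF were lost without any library other than control replicate 3. Pluripotency markers summed to at most 0.854 CPM in any library, with NANOG, DPPA4 and ZFP42 at 10 counts or under. Neural progenitor markers summed to 43.4 to 61.4 CPM in control (61.4 in control replicate 3) and 49.5 to 54.6 CPM in knockout libraries. Whether fewer cells with a transcript or less of it per cell lay behind a difference cannot be told apart in bulk RNA.

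SOX11 was almost absent from the knockout cells, SOX4 was lower and SOX12 was close to control replicates 1 and 2, so the SOXC group as a whole was lower and no SOXC gene rose by an amount near the SOX11 loss. SOX11 (ENSG00000176887, chromosome 2 of GRCh38 from 5692384 to 5701385) was read 13065, 12803 and 803 times in the controls, in replicate order, against 10, 10 and 5 times in the knockouts. Control replicate 3 thus already lay far under the other controls, and all knockout libraries lay far under control replicate 3. In CPM the controls stood at 134, 133 and 8.31 and the knockouts at 0.119, 0.114 and 0.0566. The mean of control replicates 1 and 2 was 1388 times the knockout mean, which rests on 25 knockout counts in all, and control replicate 3 was 86.2 times it. On the log2 scale the fitted change was -9.88 (standard error 1.36) over all libraries and -10.45 (standard error 0.14) without control replicate 3. These standard errors were derived from the test statistic, and 0.14 can understate the uncertainty of a change that rests on 25 knockout counts.

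SOX4, the most abundant SOX gene of these cells and a regulator of progenitor survival, moved the same way by much less on the log2 scale. SOX4 (ENSG00000124766, chromosome 6, 21593751 to 21598619) had 292, 269 and 210 CPM in the controls and 170, 166 and 166 CPM in the knockouts. All knockout libraries lay under all controls, with control replicate 3 between the other controls and the knockouts. Its log2 fold change was -0.62 (standard error 0.14), and -0.77 (standard error 0.08) without control replicate 3.

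SOX12, the weakest activator of the group, did not follow. SOX12 (ENSG00000177732, chromosome 20, 325552 to 330224) had 41.6, 49.7 and 80.5 CPM in the controls and 49.3, 59.1 and 47.7 CPM in the knockouts, so the groups overlapped. The highest value was that of control replicate 3, the control library with the least SOX11. The log2 fold change was -0.14 (standard error 0.25) and turned to 0.16 (standard error 0.09) without control replicate 3.

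**Figure D1:**
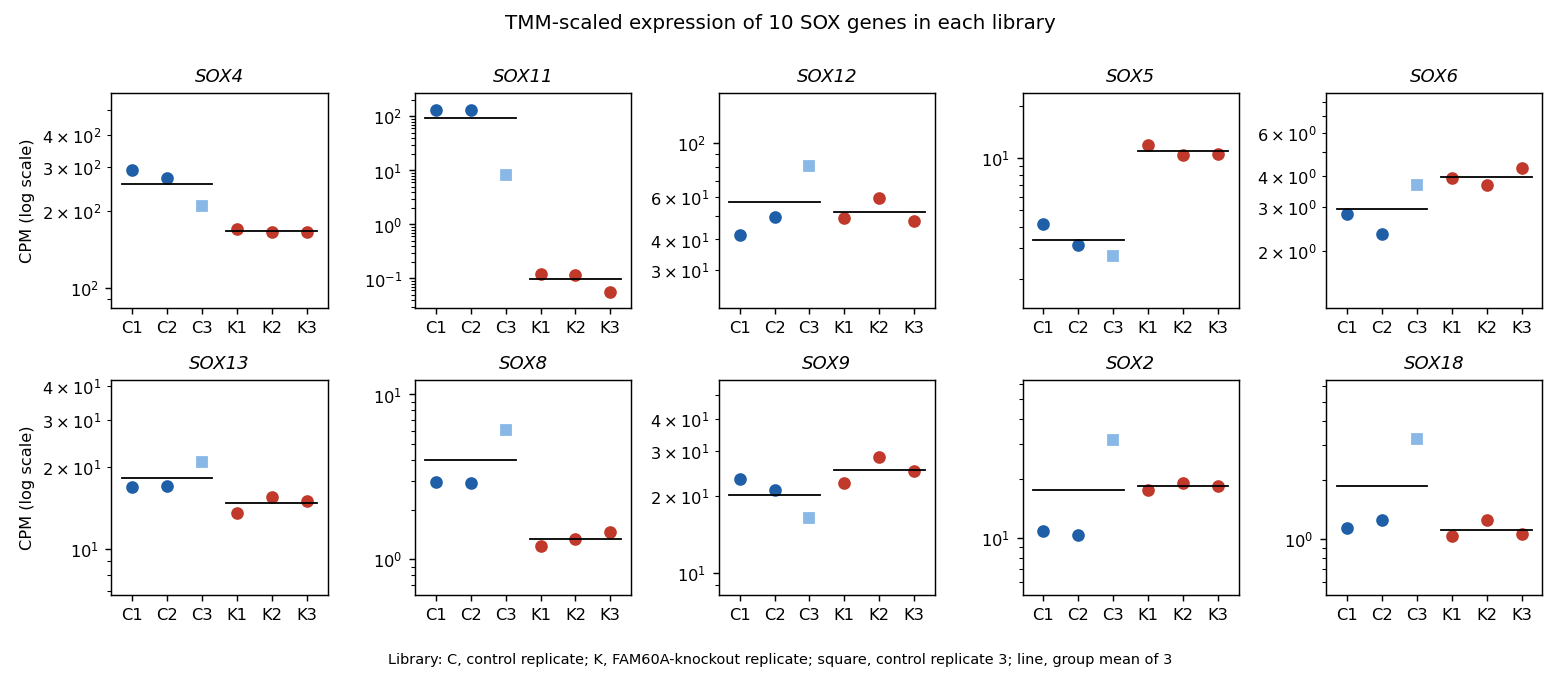
TMM-scaled CPM (log scale, with its own range for each gene) of the 10 SOX genes in control (C1 to C3) and FAM60A-knockout (K1 to K3) libraries, where points are libraries, the square is control replicate 3 and lines are means of 3 libraries. SOX11 stood at 134 CPM in control replicate 1 and at most 0.119 CPM in the knockouts, and SOX5 at no more than 4.18 CPM in the controls and 10.4 to 11.9 CPM in the knockouts.

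To compare the genes with each other, levels were divided by exon length (RPKM, the CPM per kilobase of exon). Exon length joined all annotated exons of a gene, 11289 bases for SOX5 and 9002 for SOX11. Where it exceeds the transcript that the cells make, RPKM understates the level of that gene. On this scale SOX4 stood at 57.6 RPKM in control replicates 1 and 2, SOX11 at 14.9 and SOX12 at 9.77. SOX11 thus made up 17.8% and 18.3% of summed SOXC RNA in these libraries, 1.51% in control replicate 3 and at most 0.0290% in the knockouts. The summed SOXC level was 83.8, 80.7 and 61.2 RPKM in control replicates 1, 2 and 3 and 45.5, 46.8 and 44.3 RPKM in the knockout libraries, with no overlap between the groups. The knockout mean (45.6 ± 1.23, SD, n = 3) was 60.5% of the control mean (75.2 ± 12.2, SD, n = 3) and 55.4% of the mean of control replicates 1 and 2. Against those libraries SOX11 was lower by 14.9 RPKM, SOX4 by 23.2 RPKM, and SOX12 higher by 1.36 RPKM. The sum of SOX4 and SOX12 alone was 67.6% of its level in control replicates 1 and 2. In control replicate 3 this sum stood at 89.5% of that level, with SOX12 at 176% and SOX4 at 74.8%.

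**Figure D2:**
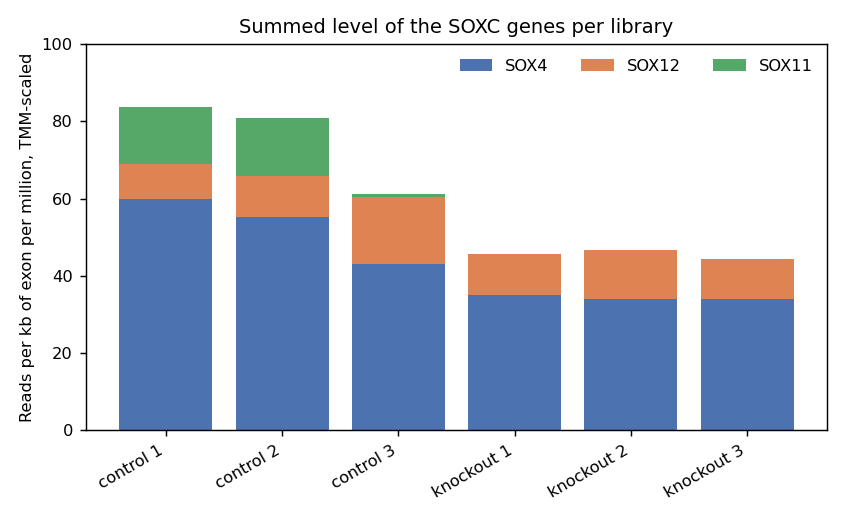
Stacked bars give the level of SOX4, SOX12 and SOX11 in each library in RPKM (TMM-scaled CPM per kilobase of exon). The total was 83.8 in control replicate 1 and between 44.3 and 46.8 in the knockout libraries, where SOX11 is too small to be seen and SOX4 is the largest part of every bar.

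Among the SOXD genes SOX5 was higher in the knockout cells, while SOX6 and SOX13 differed by less. SOX5, which in cartilage acts with SOX6 as a partner of SOX9, had 4.18, 3.12 and 2.701 CPM in the controls and 11.9, 10.4 and 10.6 CPM in the knockouts. Every knockout library lay above every control, and control replicate 3 was the lowest of the controls. The log2 fold change was 1.72 (standard error 0.21), and 1.56 (standard error 0.12) without control replicate 3. SOX6 had 2.82, 2.34 and 3.67 CPM against 3.93, 3.70 and 4.34 CPM, so the knockouts lay just above the highest control (log2 fold change 0.44, standard error 0.22, and 0.60 without control replicate 3). SOX13 went the other way, with 17.0, 17.1 and 20.9 CPM in the controls and 13.5, 15.6 and 15.1 CPM in the knockouts (log2 fold change -0.32, standard error 0.14, and -0.24 without control replicate 3). Per length, SOX5 passed from 0.323 RPKM in control replicates 1 and 2 to 0.973 ± 0.0734 RPKM in the knockouts (SD, n = 3), which is small beside the 14.9 RPKM lost with SOX11.

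Of the SOXE genes, SOX8 was lower in the knockout cells and the groups overlapped for SOX9. SOX8, which overlaps with SOX9 in gonad and glial development, had 2.95, 2.91 and 6.10 CPM in the controls and 1.21, 1.33 and 1.46 CPM in the knockouts. The knockout libraries lay under all controls, and control replicate 3, with the highest value, lay farthest from them. Its log2 fold change was -1.58 (standard error 0.34), and -1.16 (standard error 0.14) without control replicate 3. SOX9, the master regulator of cartilage, had 23.3, 21.1 and 16.4 CPM against 22.5, 28.5 and 25.1 CPM, so the groups overlapped (log2 fold change 0.32, standard error 0.17, and 0.16 without control replicate 3).

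SOX2 and SOX18 differed among the controls more than between the groups. SOX2, the stem cell factor, had 10.8, 10.4 and 31.2 CPM in the controls and 17.5, 18.9 and 18.4 CPM in the knockouts. The knockouts thus lay above control replicates 1 and 2 and under control replicate 3. Its log2 fold change was 0.06 (standard error 0.44) over all libraries, turned to -0.044 when only library size was used for scaling, and was 0.75 (standard error 0.09) without control replicate 3. SOX2 lies inside the long noncoding gene SOX2-OT on the same strand, so reads in the shared stretch are uncertain, and SOX2-OT was read 12, 16 and 62 times in controls against 33, 26 and 41 times in knockouts. SOX18, a factor of vessel endothelium, had 1.13, 1.25 and 3.21 CPM against 1.03, 1.24 and 1.05 CPM (log2 fold change -0.75, standard error 0.43). Without control replicate 3 the SOX18 value was -0.13 (standard error 0.17).

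Over the family, a call needed a change of 1 or more on the log2 scale, in either direction, and an adjusted p no higher than 0.05 in edgeR's quasi-likelihood test with Benjamini-Hochberg adjustment over all genes tested. SOX5 was called higher, where 3.34% of all genes tested were, and SOX8 and SOX11 were called lower, where 3.72% were. Without control replicate 3 the same 3 members were called, against 13.1% of all genes higher and 9.75% lower. The SOX5 call was lost without knockout replicate 1 or 3, the SOX11 call without any one knockout library (and with limma-voom), and the SOX8 call without any library other than control replicate 3. The SOX4 change was under the fold threshold in both fits. Of the 10 members, 4 had every knockout library under every control (SOX4, SOX8, SOX11 and SOX13), against 20.1% of all genes, and 2 had every knockout library above every control (SOX5 and SOX6), against 21.5%. The median log2 fold change was -0.23 over the members and -0.01 over all genes tested, and 0.01 against -0.002 without control replicate 3. Since the members were chosen with this comparison known, these calls and counts describe the list and no more. Within the controls, SOX2, SOX8 and SOX18 were at least 2-fold higher in control replicate 3 (2.945, 2.08 and 2.696 times the mean of the other controls), and SOX11 was lower there (0.0621 times).

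**Figure D3:**
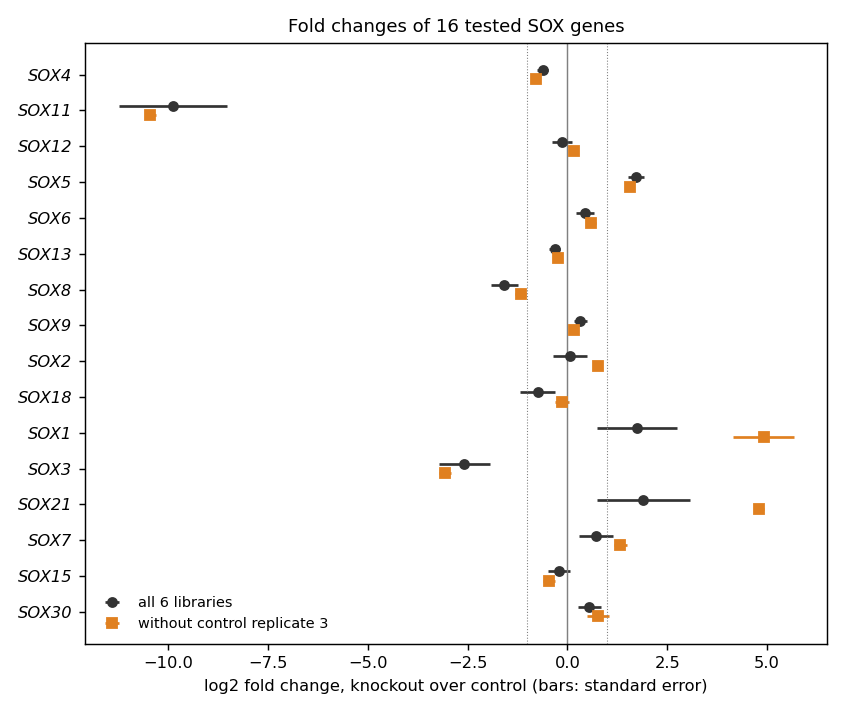
Log2 fold change of knockout over control for the 16 tested SOX genes, with all libraries (circles) and without control replicate 3 (squares), where bars are standard errors and dotted lines mark the fold threshold of 1. SOX11 stands at -9.88 and -10.45, and the estimates of SOX1 and SOX21 change most when control replicate 3 is left out.

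The remaining SOX genes were examined as a list of 9, SOX1, SOX3, SOX7, SOX10, SOX14, SOX15, SOX17, SOX21 and SOX30, with the Y-linked SRY left out. SOX14 and SOX17 had 0 counts in every library, which allows up to 3 counts each, and SOX10 was under the filter with 7 to 15 counts. Of the 6 tested, SOX3 was called lower and none higher, where 3.72% and 3.34% of all genes tested were. SOX3, an X-linked SOXB relative of SOX2, was read 461, 474 and 86 times in controls against 48, 58 and 47 times in knockouts. All knockout libraries lay under control replicate 3, which lay under the other controls, the same order as for SOX11. It changed by -2.58 on the log2 scale, with a standard error of 0.63 and an edgeR adjusted p of 0.0400 (7.1e-14 to 0.164 across alternatives), and the call was lost without any library other than control replicate 3, without which the change was -3.07. Over SOX1, SOX3 and the rest of the tested list, the median log2 fold change was 0.63, and 1.05 without control replicate 3.

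SOX21, a SOXB gene known to counteract SOX2-type activators, showed the mirror image. It was read 63, 66 and 1348 times in controls against 1586, 1781 and 1594 times in knockouts. Control replicate 3 lay close to the knockouts, at 20.9 times the mean of the other controls in CPM, and the knockout mean was 28.6 times that same mean. Over all libraries it changed by 1.90 on the log2 scale, with a standard error of 1.17 and an edgeR adjusted p of 0.295 (4.68e-18 to 0.476 across alternatives). Without control replicate 3 the change was 4.80 (standard error 0.13), with an edgeR adjusted p of 4.68e-18, the lowest of those alternatives. The divergent lncRNA SOX21-AS1, whose RefSeq start lies 171 bases from that of SOX21, followed it with 116, 107 and 1608 counts against 1551, 1701 and 1489. GENCODE models of SOX21-AS1 span SOX21 on the opposite strand, and whether the counting used strand is not given in the sources used here, so the split of reads between them is uncertain. None of the 4 tested SOX lncRNAs (SOX2-OT, SOX9-AS1, SOX21-AS1 and SOX1-OT) was called with edgeR, 0 had an unadjusted p under 0.05, and DESeq2 called 0 and limma-voom 0. DESeq2 gave no adjusted p for SOX21-AS1, so it could not call that gene. Without control replicate 3, 3 of the 4 were called higher, SOX2-OT (log2 fold change 1.37), SOX21-AS1 (3.95) and SOX1-OT (2.67). Of the SOX genes on the list, SOX1, SOX7 and SOX21 were called higher and SOX3 lower in that fit, in which 13.1% of all genes were called higher and 9.75% lower. SOX7, a SOXF relative of SOX18, had 1.03 and 1.23 CPM in control replicates 1 and 2, 3.002 in control replicate 3 and 2.58, 3.28 and 2.81 in the knockouts. SOX1 had 1, 0 and 16 counts against 16, 17 and 19. SOX15 (log2 fold change -0.21, standard error 0.27) and SOX30 (0.55, standard error 0.29) were not called in either fit.

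**Figure D4:**
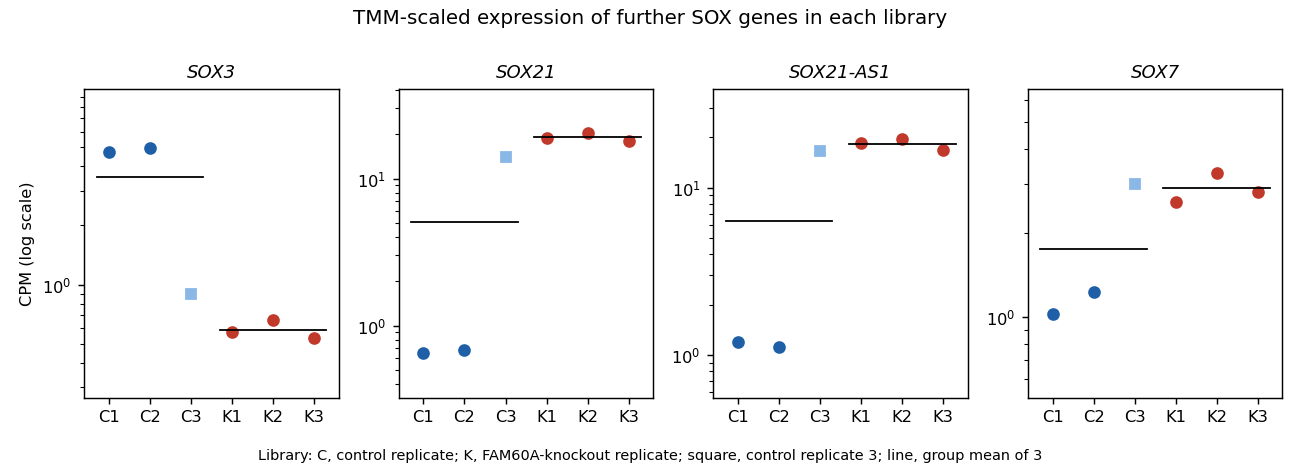
TMM-scaled CPM (log scale) of SOX3, SOX21, its divergent lncRNA SOX21-AS1 and SOX7 in each library, where points are libraries, the square is control replicate 3 and lines are means of 3 libraries. Control replicate 3 lies near the knockouts in all 4 panels, at 0.89 CPM for SOX3 and 13.95 CPM for SOX21.

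In order of level per length, the leading SOX genes of control replicates 1 and 2 were SOX4, SOX11, SOX12, SOX9 and SOX2, at 57.6, 14.9, 9.77, 5.65 and 4.22 RPKM. In the knockouts the order was SOX4 (34.4 ± 0.50), SOX12 (11.1 ± 1.32), SOX2 (7.27 ± 0.285), SOX21 (6.52 ± 0.391) and SOX9 (6.45 ± 0.760 RPKM; SD, n = 3). Libraries of SOX9 (5.72 to 7.24 RPKM) overlapped there with those of SOX21 (6.17 to 6.94) and SOX2 (6.96 to 7.52), so the order of these 3 genes lies within or at the edge of their spread. SOX11 ranked 17th of 19 SOX genes in the knockouts and 11th in control replicate 3. Summed over the 19 genes, SOX RNA was 103, 98.9 and 91.4 RPKM in the controls and 71.2, 75.2 and 70.9 RPKM in the knockouts.

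Genes that SOX factors are known to regulate, and the POU proteins with which they pair on DNA, were taken as 5 lists from general knowledge, and 29 of 35 were tested. Of these 3 were called lower (TUBB3, PDGFA and NES) and 1 higher (VCAM1), against 3.72% and 3.34% of all genes, with a median log2 fold change of -0.02. Without control replicate 3 the counts were 5 lower and 7 higher, against 9.75% and 13.1% of all genes, so calls became more frequent over all genes as well, and the median was -0.13. Among 10 tested targets of SOXC factors, TUBB3, a neuronal tubulin, and PDGFA, a growth factor, were called lower. PDGFA had 16.1, 15.5 and 10.9 CPM in the controls and 6.495, 6.74 and 6.58 CPM in the knockouts (log2 change -1.10, standard error 0.18, and -1.29 without control replicate 3), with an edgeR adjusted p of 0.0154 (3.16e-11 to 0.0992 across alternatives). TUBB3 was low throughout, with 84, 84 and 40 counts against 23, 21 and 19 (log2 change -1.56, standard error 0.35, and -1.87 without control replicate 3), with an edgeR adjusted p of 0.0314 (4.01e-07 to 0.141). TEAD2, which encodes a DNA-binding partner of YAP1, had 29.3, 32.9 and 28.4 CPM against 16.1, 16.6 and 14.6 CPM, and at -0.94 (standard error 0.11, edgeR adjusted p = 0.00721, range 1.39e-11 to 0.0654) it passed the adjusted p but missed the fold threshold over all libraries. It was called without control replicate 3 (-1.01) and when only library size set the scaling (-1.04). MAP2, a neuronal microtubule protein, was lowest in control replicate 3, at 5.23 CPM, and stood at 9.38 to 10.0 CPM in the knockouts and 26.5 and 23.0 CPM in control replicates 1 and 2. Of the alternatives run, it was called lower only without control replicate 3 (log2 fold change -1.40, against -0.93 over all libraries). DCX, the textbook SOXC target of young neurons, was under the filter with at most 6 counts in any library.

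Of the stem cell list around SOX2, only NES, the intermediate filament nestin, was called, with 1768, 1653 and 582 reads in controls against 314, 287 and 350 in knockouts (log2 change -1.92, standard error 0.42, and -2.31 without control replicate 3) and an edgeR adjusted p of 0.0299 (1.42e-14 to 0.136 across alternatives). NANOG, LIN28A and FGF4 were under the filter with at most 8 counts. Of the targets of SOX18, VCAM1, a vascular adhesion molecule, was read 1, 2 and 1 times in controls against 25, 16 and 28 times in knockouts, and was at least 8.55-fold higher against a floor of 3 counts per library (edgeR adjusted p = 0.00606, with 5.8e-06 to 0.0542 across alternatives). CLDN5 and PROX1 were not called (log2 fold changes -0.02 and -0.10). Among the 9 tested cartilage genes downstream of SOX9, SOX5 and SOX6, none was called with edgeR, 2 had an unadjusted p under 0.05, and DESeq2 called 0 and limma-voom 0. DESeq2 gave no adjusted p for COL9A2, so it could not call that gene. COL2A1, the main cartilage collagen, had 59.0 and 58.2 CPM in control replicates 1 and 2, 197 CPM in control replicate 3 and 119, 114 and 138 CPM in the knockouts. Control replicate 3 was thus the highest library. COL9A2 had 1.99, 2.21 and 30.3 CPM against 12.1, 11.9 and 11.6 CPM. Without control replicate 3, COL2A1, COL9A1, COL9A2 and MATN1 were called higher, 4 of the 9 where 13.1% of all genes were. The chondrocyte markers COL2A1, ACAN, MATN1 and COL9A1, which are on this list too, summed to 59.0 to 199 CPM in control (199 in control replicate 3) and 115 to 139 CPM in knockout libraries. Nearly all of this sum was COL2A1, as ACAN, MATN1 and COL9A1 had at most 0.555, 0.832 and 0.404 CPM in any library. ACAN was lower and MATN1 higher in every knockout library than in every control, and the groups overlapped for COL2A1 and COL9A1. The POU partners POU2F1, POU3F2 and POU3F3 stayed within a log2 fold change of 0.14 of the controls, while POU3F1 stood at -0.82 (standard error 0.21), with an edgeR adjusted p of 0.0456 (0.00273 to 0.191 across alternatives). None of the 4 tested POU genes was called by edgeR, 1 had an unadjusted p under 0.05, and DESeq2 called 0 and limma-voom 0. The calls of TUBB3, PDGFA and NES were lost without any library other than control replicate 3, and that of VCAM1 without knockout replicate 1 or 3.

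**Figure D5:**
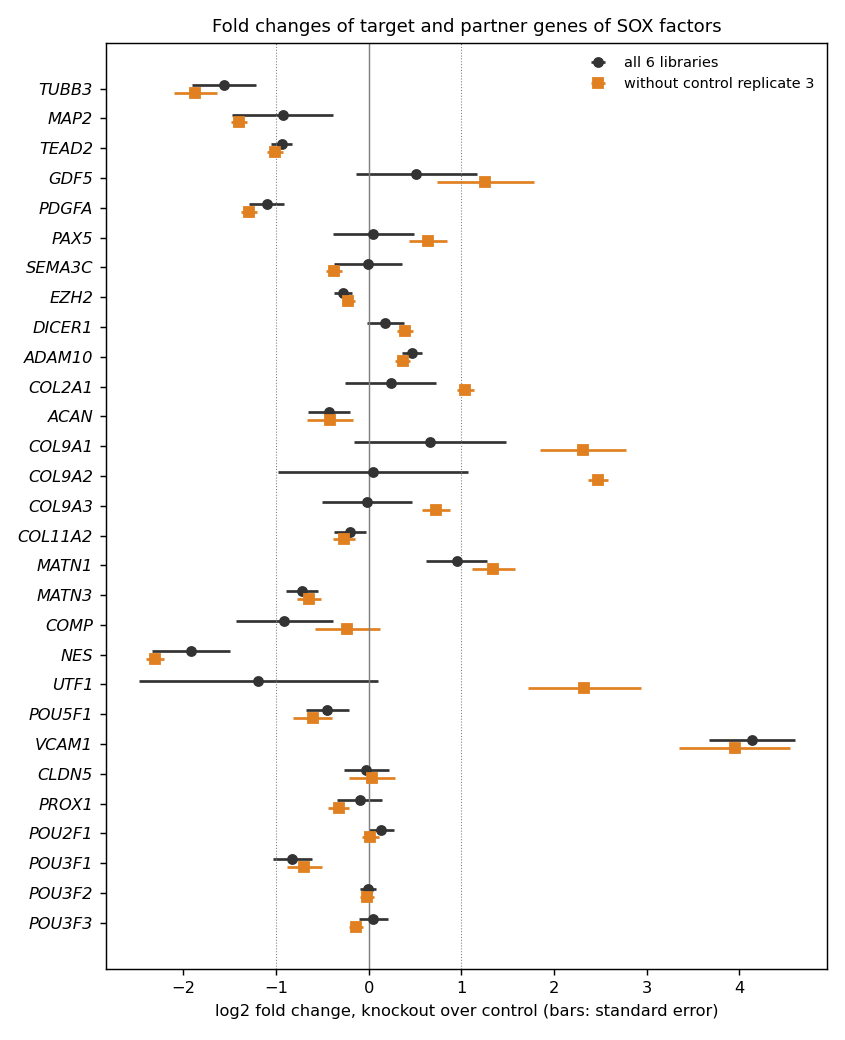
Log2 fold change of knockout over control for the 29 tested target and partner genes of SOX factors, with all libraries (circles) and without control replicate 3 (squares), where bars are standard errors and dotted lines mark the fold threshold of 1. NES, TUBB3 and PDGFA lie under -1 and VCAM1 above 1 in both fits, while COL9A2 and UTF1 change most between them.

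The position of the members was compared through the nearest tested protein-coding genes, a pair on each side of each member in the RefSeq order of GRCh38. Of these 40 genes, 2 were called lower and 1 higher, against 3.72% and 3.34% of all genes. SOX11 lies in a gene-poor stretch, with COLEC11 2048 kb before and CMPK2 1139 kb after it. COLEC11 was read 8, 16 and 79 times in controls against 117, 125 and 141 times in knockouts, and CMPK2 was read 307, 284 and 60 times against 59, 71 and 78 times, so the flanking genes differed in opposite directions (log2 fold changes 2.04 and -1.49). Neither was called over all libraries, and both were without control replicate 3 (3.52 and -1.97), when 4 of the 40 were called higher and 3 lower, against 13.1% and 9.75% of all genes. CDKAL1 and DCDC2, on either side of SOX4, had log2 fold changes of -0.33 and 0.27. The called neighbours were GNG13, 181 kb before SOX8 (-1.67), C20orf204, 8.58 kb before SOX18 (-1.32), and SSTR2, 1039 kb after SOX9 (1.15). LMF1 lay nearer to SOX8 than GNG13, and SLC39A11 nearer to SOX9 than SSTR2, and neither was called.

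The genes whose log2 CPM followed SOX11 most closely over the 6 libraries were NCAPG2, PLIN3, GFRA2, ZFP1 and TP73-AS1, with Pearson correlations of 0.999 each. These correlations describe the shape over 6 libraries and not the size of the change. Separate cell pools or cultures are not stated for the knockout libraries. NCAPG2, a condensin subunit, went from 13172, 12777 and 10956 counts to 7198, 7426 and 7285, whereas SOX11 was nearly lost.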

How the data were processed

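RNA-seq was available for 3 control and 3 FAM60A-knockout libraries, grouped by their titles. Per the paper's methods, the authors made poly(A)-selected, strand-specific libraries, filtered reads with Trimmomatic and quantified them with Salmon on hg38. The submitters' processing notes name STAR 2.7.10b, featureCounts 2.0.0 and hg38, and the extract protocol names hg19. The authors deposited raw counts, whole numbers for each Ensembl gene. The annotation release and strand setting are not given in the sources used here. Symbols were matched for 60878 of 62754 genes, and every column belonged to a sample.

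Counts were analysed with edgeR 4.0.16 in R 4.3.3: TMM, filterByExpr with a minimum count of 10, which kept 20992 genes, and its quasi-likelihood test, 2-sided, with Benjamini-Hochberg adjustment. Standard errors were derived from the F statistic. Where counts were very low they differed from those of DESeq2 over all libraries. They were 0.46 against 0.93 for VCAM1 and 1.36 against 1.09 for SOX11. Exon lengths came from GENCODE v44 lifted to GRCh37 and positions from RefSeq on GRCh38.p14. Members were chosen with earlier results of these data known. The other lists were drawn from general knowledge with those results also known, so p-values of their genes describe them and are no independent test. The text names the SOX genes, FAM60A, called and up to 4 other genes of each list, the lncRNAs named for a SOX gene, neighbours, and the 5 genes most correlated with SOX11. Markers were named for the check of the cell type. Alternatives were DESeq2 1.42.0, limma-voom (limma 3.58.1), library size without TMM, other filters, each library left out, and the replicate number as a block. The limma-voom fit used quantile normalization in place of TMM, so it differed from edgeR in scaling as well as in test. Separate cultures are not stated for the replicates, so p-values measure only the spread between these libraries, which may be technical. The fit was tested on simulated data. Floors cover counting error only. Coding sequences of the SOXC genes are not reported here.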

Additional observations from a re-analysis of the deposited data

How the results depend on the processing

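Counts of called genes depended mainly on which library was left out. Shares of all genes called are given only for the fit over all libraries and that without control replicate 3. In the other fits, a changed count cannot be told apart from a change in calls over all genes. Over the fits without one library, 0 to 3 SOX members, 0 to 4 other SOX genes and 0 (without knockout replicate 1 or 3, with 8 at an unadjusted p under 0.05) to 12 target and partner genes were called, against 3, 1 and 4 over all libraries. The upper ends came without control replicate 3, and 0 members were called without knockout replicate 1 or 3, where 4 had an unadjusted p under 0.05 in each fit. No other SOX gene was called in any fit that kept control replicate 3 and left out another library, with 1 at an unadjusted p under 0.05 in each. Without knockout replicate 2, 1 member was called. With at least 10 counts required in every library SOX11 could not be tested. For the other SOX genes the count was 0 with limma-voom, where 4 had an unadjusted p under 0.05. For the target and partner genes it was 2 with limma-voom.

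With the replicate number as a block, 2 members (SOX5 and SOX11), 0 other SOX genes (2 at an unadjusted p under 0.05) and 1 target gene were called. The numbers are shared by title only, and deviations of same-numbered libraries correlated at 0.0101, 0.0306 and -0.0362, so no pairing was assumed.

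Among the SOX genes, directions turned for SOX2, to -0.044 with library size without TMM, -0.21 without control replicate 1 and -0.20 without control replicate 2 (-0.21 to 0.75 over the fits without one library), and for SOX12, to 0.16 without control replicate 3 (-0.35 to 0.16). Among the lncRNAs, fold changes changed sign over the fits without one library for SOX2-OT (-0.092 to 1.37) and SOX1-OT (-0.32 to 2.67). Among the target and partner genes named, they did so for COL2A1 (-0.066 to 1.05, with -0.054 without control replicate 2), COL9A2 (-0.47 to 2.47) and UTF1 (-1.76 to 2.33). The same held for CLDN5 (-0.20 to 0.055), PROX1 (-0.32 to 0.061), POU3F2 (-0.040 to 0.025) and POU3F3 (-0.13 to 0.15). Of the HEK293 markers, PAX2 (-0.98 to 0.29) and NEFL (-0.38 to 0.10) changed sign too. With library size without TMM, COL9A2 turned to -0.059 and POU3F3 to -0.058, and with the replicate block UTF1 turned to 0.17. Library size without TMM moved the median log2 fold change of all genes from -0.01 to -0.12. The summed SOXC level in the knockouts stayed between 54.1% and 64.2% of control under every scale and left-out library (55.4% to 64.2% without one library). Why calls were lost was not tested.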
